A study of Mus musculus with 24 samples.

Results

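The 9 recombinant inbred (RI) mouse strains fell into sets by the lung mRNA level of Apobec3, a chromosome 15 gene. The set with a low, C3-like level comprised BXH2, BXH7, BXH8, BXH9 and BXH19, which is 10 arrays of 5 strains. The set with a high, B6-like level comprised BXH4, BXH6, BXH10 and BXH14, which is 8 arrays of 4 strains. The whole series held 24 arrays of 12 strains, the others being the progenitors C3 (C3H/HeJ) and B6 (C57BL/6J) and their F1 hybrid, with 2 arrays each. Lung RNA of untreated males aged 8 weeks, obtained from the Jackson Laboratory, was read on Affymetrix Mouse 430A arrays. Such an array detects each transcript with a set of short probes and yields a linear signal. Whether both arrays of a strain stem from different mice is not stated in the labels. The p-values of low minus high on strain means cover the spread among the strains within a set. Those of C3 minus B6 cover no more than the scatter between arrays of a strain, part of which may be technical. The strains of each set were chosen by their measured Apobec3 signals, strain means of log2(signal + 16), so the Apobec3 values below are a description, and the comparison is between strains and not between treatments.

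Apobec3 encodes a cytidine deaminase that is packaged into retrovirus particles and damages or blocks the copying of their genomes, and its alleles are known to differ between mouse strains in resistance to retroviruses. A recombinant inbred strain is a fixed mosaic of its progenitors: at each place in the genome it is homozygous for one progenitor's allele, and genes that lie close together are usually inherited together. A gene near Apobec3 can therefore carry its own allelic difference along with Apobec3, whereas a gene on another chromosome is inherited independently unless its allele happens to fall the same way in so few strains. BXH2 is also known to carry a point mutation in the transcription factor gene Irf8, which affects its myeloid cells.

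The promoters of Apobec3 and of the 2 genes on which the results below turn are shown first. Cbx6 is the tested gene next to Apobec3, and Gprc5b is the gene of another chromosome with the largest difference among those whose strain means did not overlap. Each stretch is 300 bases of RefSeq sequence of the C57BL/6J genome (GRCm38.p6), written 5′ to 3′ on the strand of the gene, and reaches from before the annotated start to shortly after it. Apobec3 has 2 annotated starts, at chr15:79892158-79892457 and chr15:79894773-79895072 on the plus strand. The Cbx6 stretch is chr15:79834284-79834583 on the minus strand, and that of Gprc5b is chr7:118995162-118995461 on the minus strand. Capitals mark a match to GAAA repeated after any 2 bases, a core of the element through which interferon-induced factors bind DNA, searched on both strands with overlaps allowed.
Apobec3, start 1: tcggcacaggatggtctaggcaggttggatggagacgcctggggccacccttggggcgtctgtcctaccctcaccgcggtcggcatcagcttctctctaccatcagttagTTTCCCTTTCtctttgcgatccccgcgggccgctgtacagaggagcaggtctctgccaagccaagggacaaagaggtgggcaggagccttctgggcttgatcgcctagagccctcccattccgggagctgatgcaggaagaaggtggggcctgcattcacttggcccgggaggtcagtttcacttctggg
Apobec3, start 2: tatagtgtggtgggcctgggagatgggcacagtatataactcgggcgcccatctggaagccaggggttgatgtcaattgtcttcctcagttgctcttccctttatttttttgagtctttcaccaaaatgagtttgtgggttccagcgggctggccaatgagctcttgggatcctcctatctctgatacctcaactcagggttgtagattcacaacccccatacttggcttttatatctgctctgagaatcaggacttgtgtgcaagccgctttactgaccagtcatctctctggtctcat
Cbx6: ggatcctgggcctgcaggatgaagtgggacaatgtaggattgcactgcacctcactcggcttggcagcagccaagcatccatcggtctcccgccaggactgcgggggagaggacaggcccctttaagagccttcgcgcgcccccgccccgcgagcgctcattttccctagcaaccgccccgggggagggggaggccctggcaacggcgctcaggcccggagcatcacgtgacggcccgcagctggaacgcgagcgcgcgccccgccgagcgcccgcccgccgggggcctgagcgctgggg
Gprc5b: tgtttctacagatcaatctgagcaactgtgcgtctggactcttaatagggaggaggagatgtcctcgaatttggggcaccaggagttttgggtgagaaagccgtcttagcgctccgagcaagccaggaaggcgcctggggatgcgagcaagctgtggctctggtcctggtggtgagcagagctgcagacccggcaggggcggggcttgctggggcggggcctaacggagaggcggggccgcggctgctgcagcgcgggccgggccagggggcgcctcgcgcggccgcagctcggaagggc
The only match in these 4 stretches was in the first Apobec3 promoter, on the opposite strand, where it reads TTTCCCTTTC. Such a match was present in 1131 of 32851 promoters of this length (3.44%). These are the letters of the B6 progenitor, and the C3 letters were not analysed here.

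Apobec3, read by 1 probe set, had strain means of 264.0 in BXH2, 284.1 in BXH7, 231.1 in BXH8, 276.9 in BXH9 and 226.1 in BXH19. The strains of the high set had 820.3 in BXH4, 718.4 in BXH6, 647.5 in BXH10 and 582.5 in BXH14. Single arrays ran between 210.5 and 303.1, with a median of 264.05, in the low set, and between 499.3 and 874.0, with a median of 718.65, in the high set, so neither strains nor arrays overlapped. Just inside the boundary stood BXH7 in the low set and BXH14 in the high set. The 2 arrays of BXH10, at 499.3 and 838.4, were the farthest apart of any strain. The difference, low minus high, was -1.37 on the log2 scale. The progenitors belong to neither set, but the sets were named by likeness to them. Their Apobec3 levels are therefore no independent check of the split. C3 had 299.65 ± 10.8 and B6 had 623.95 ± 96.4 (SD, n = 2 each), and F1 had 437.65 ± 7.99 (SD, n = 2). C3 minus B6 was -1.01 ± 0.18 (SE), with an adjusted p of 0.00427 by limma. F1 lay between C3 and B6.

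**Figure D1:**
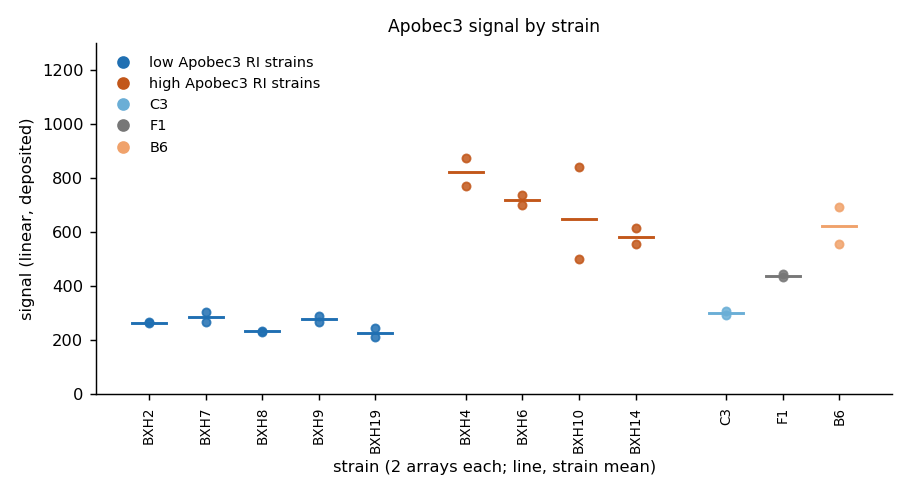
Apobec3 signal (linear, vertical axis) on each array, by strain (horizontal axis). Points are arrays and lines are strain means; the 10 arrays of the low set lie at 303.1 or less and the 8 of the high set at 499.3 or more, while F1 lies between C3 and B6.

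Arrays were comparable in scale, with median signals between 239.0 and 269.6. Arrays of 1 strain correlated at 0.949 to 0.975 and arrays of different strains at 0.909 to 0.969 over tested genes, and 16 of 24 arrays were closest to the other array of their strain. Transcripts of other tissues differed between the strains. The summed signal of the 15 skeletal muscle genes on the array ran between 4094 in BXH19 and 41734 in BXH9 in the low set, and between 3863 in BXH6 and 7181 in BXH14 in the high set. BXH2, BXH8 and BXH9 had the highest muscle levels of the 9 strains, with list means of 10.82, 10.86 and 11.19 on the log2 scale, and all 3 belong to the low set.

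The first question was how many genes followed the split. On strain means, limma called 0 of 8279 genes other than Apobec3 (0%) at an adjusted p below 0.05, and the lowest adjusted p was 0.988. An unadjusted p below 0.05 was reached by 360 genes (4.35%). The weaker criterion, that no strain mean of one set reached into the range of the other, was met by 103 genes (1.24%), of which 47 (0.568%) were higher and 56 (0.676%) lower in the low set. Of these, 9 of 342 genes lay on chromosome 15 and 94 of 7937 on other chromosomes. Chromosome 15 had the highest share of the 20 chromosomes at 2.63%, with chromosome 14 next at 2.48%. The share of chromosome 15 genes at an unadjusted p below 0.05 was 8.19%, against 4.35% of all genes. Leaving out any 1 strain, which makes the criterion easier to meet, gave 11 to 26 genes on chromosome 15 and 155 to 394 elsewhere, with the highest numbers without BXH14. Without the first array of BXH14 alone there were 13 and 163. The median absolute difference was 0.085 on the log2 scale on chromosome 15 and 0.076 over all genes. None of the genes named in the next paragraphs was called unless a call is stated, and their values are given as sizes.

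The genes next to Apobec3 came next. The 6 tested genes on each side were examined, in RefSeq gene order (GRCm38.p6). Cbx6, a chromobox protein of Polycomb complexes and the tested gene immediately before Apobec3, had strain means of 1423.8 in BXH2, 1257.4 in BXH7, 1255.2 in BXH8, 1117.3 in BXH9 and 1164.8 in BXH19. In the high set it had 1506.2 in BXH4, 1643.0 in BXH6, 1650.1 in BXH10 and 1627.5 in BXH14. No strain mean overlapped, although single arrays did, at 1056.8 to 1450.8 in the low set and 1357.5 to 1894.8 in the high set. The Cbx6 difference was -0.37 ± 0.08 (SE, log2), with an unadjusted p of 0.000853 and an adjusted p of 0.988 by limma. C3 and B6 differed the same way, with 1331.75 ± 99.5 and 1579.3 ± 114 (SD, n = 2 each), and that difference of -0.24 was not called (adjusted p 0.718, limma). The Cbx6 probe set is of the type whose probes can bind related transcripts.

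The other 11 neighbours stood close to 0. On the side of Cbx6 these were the RNA helicase gene Ddx17 (0.01), the mitochondrial import receptor Tomm22 (-0.08), the GTP-binding protein gene Gtpbp1 (-0.08), the nuclear envelope gene Sun2 (-0.11) and the dynein light chain Dnal4 (-0.12). On the far side they were the growth factor Pdgfb (-0.00), the synaptic vesicle gene Syngr1 (-0.14), the kinase-binding protein Tab1 (-0.07), the stress transcription factor Atf4 (-0.06), the microRNA-silencing component Tnrc6b (-0.05) and the purine enzyme Adsl (0.01), all as log2 differences. The strain means of all 11 overlapped between the sets. A dim probe set for Cbx7, which lies immediately beyond Apobec3 and was not among the tested genes, is described below.

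Within 10 tested genes on each side of Apobec3, 3 of 20 had strain means that did not overlap: Cbx6, Csnk1e and Maff. Within 20 on each side the number was 3 of 40, and within 40 it was 5 of 80, to which Ncf4 and Smdt1 were added. Over all genes the share without overlap was 1.24%. An unadjusted p below 0.05 by limma was reached by 3 of 20, 5 of 40 and 13 of 80 genes in these windows, beside 4.35% of all genes. The median absolute difference in them was 0.073, 0.077 and 0.094, beside 0.076 over all genes. The remaining 4 of the 9 chromosome 15 genes lay far out: Retreg1, Cox6c and Eif3h at 153, 134 and 112 tested genes before Apobec3, and Cbx5 at 152 after it.

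**Figure D2:**
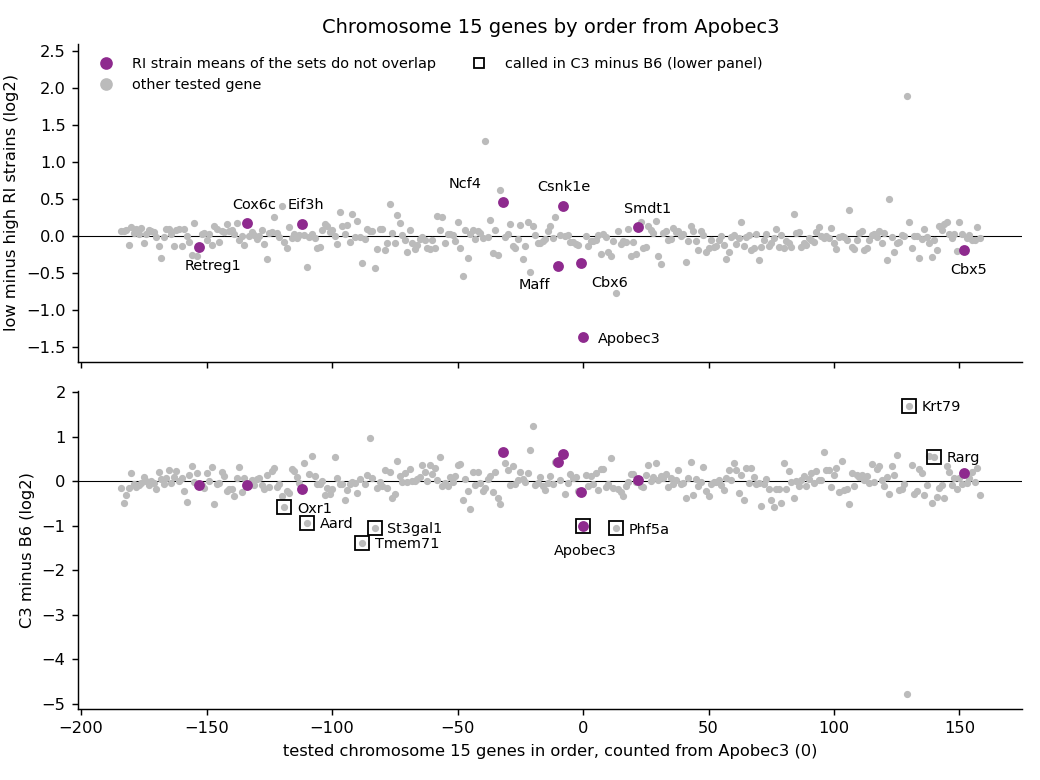
Log2 difference of each tested chromosome 15 gene (vertical axes) by its place in gene order counted from Apobec3 (horizontal axis), for the low minus high RI strains above and for C3 minus B6 below. Purple points are genes whose RI strain means did not overlap, and squares in the lower panel are the 8 genes called in C3 minus B6. Around Apobec3, at -1.37, most genes lie near 0.

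Csnk1e, a casein kinase of the circadian clock and Wnt signalling, was the nearest gene that was higher in the low set without overlap of strain means. Its strain means were 1040.2, 999.3, 1190.6, 1015.0 and 945.0 in BXH2, BXH7, BXH8, BXH9 and BXH19, against 759.1, 730.0, 899.3 and 725.1 in BXH4, BXH6, BXH10 and BXH14. The Csnk1e difference was 0.41 ± 0.09 (SE, log2), with an unadjusted p of 0.00101 and an adjusted p of 0.988 by limma. C3 had 1175.8 ± 264 and B6 had 752.2 ± 4.95 (SD, n = 2 each), a difference of 0.62 in the same direction with an adjusted p of 0.0657 by limma. The second Csnk1e probe set went the other way: its strain means ran between 591.2 and 728.6 in the low set and between 684.3 and 1069.8 in the high set, a difference of -0.35. The 2 probe sets disagree in sign, so no direction for the gene as a whole follows from them.

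Ncf4 encodes the p40phox subunit of the phagocyte NADPH oxidase and lies 32 tested genes before Apobec3. It had strain means of 331.5 in BXH2, 490.8 in BXH7, 372.9 in BXH8, 336.7 in BXH9 and 444.4 in BXH19, against 306.7 in BXH4, 286.7 in BXH6, 301.7 in BXH10 and 230.5 in BXH14. The difference was 0.46 ± 0.13 (SE, log2), and C3 minus B6 was 0.67 ± 0.20 (SE, log2), with 481.9 ± 14.7 in C3 and 299.45 ± 44.6 in B6 (SD, n = 2 each). Neither was called, at adjusted p of 0.988 and 0.144 by limma. F1, at 291.85 ± 6.43 (SD, n = 2), stood at the level of B6. BXH2 and BXH9 were the low-set strains nearest to the high set.

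Maff, a small Maf transcription factor, had strain means between 145.5 in BXH7 and 206.3 in BXH9 in the low set, and between 220.9 in BXH14 and 295.5 in BXH4 in the high set. The difference of -0.40 ± 0.13 (SE, log2), or -0.25 without the first array of BXH14, ran against the progenitors, where C3 minus B6 was 0.42 ± 0.37 (SE, log2), and single Maff arrays overlapped widely, at 112.6 to 251.0 in the low set and 138.7 to 346.9 in the high set. The other 5 were small in size. Smdt1, a part of the mitochondrial calcium uniporter, was higher by 0.12 on the log2 scale, Cox6c, a cytochrome oxidase subunit, by 0.17 and Eif3h, a translation initiation subunit, by 0.17. The second Cox6c probe set differed by 0.29, and both other Eif3h probe sets, which are near the floor, went the other way, at -0.15 and -0.53. Retreg1, a receptor for autophagy of the endoplasmic reticulum, differed by -0.14 and Cbx5, a heterochromatin protein, by -0.20, while the other 4 Cbx5 probe sets ran between -0.28 and 0.02. Of the 9 genes, 5 had the sign of C3 minus B6, beside 47.2% of all genes. When C3 was added to the low set and B6 to the high set, 3 of the 9 had means that still did not overlap: Csnk1e, Ncf4 and Cbx6.

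The second question on chromosome 15 was how far the C3 or B6 side of Apobec3 reached along the chromosome in each strain. C3 minus B6, which uses arrays that the split did not use, called 138 of 8280 genes (1.67%) at an adjusted p below 0.05 by limma, with 62 (0.749%) higher and 76 (0.918%) lower in C3. On chromosome 15 there were 8: Krt79 and Rarg were higher in C3, and Oxr1, Aard, Tmem71, St3gal1, Apobec3 and Phf5a were lower. For each of these the position of a strain was set on a scale on which B6 is 0 and C3 is 1, and a strain counted as nearer C3 above 0.5. These positions describe transcript levels and are not genotypes. The 8 calls rest on 2 arrays per progenitor: 3 chromosome 15 genes were called without the second C3 array (Csnk1e, Krt79 and Tmem71) and 4 without the second B6 array (Phf5a, Krt79, Zfp740 and Sh3bp1). Fitted on the C3 and B6 arrays alone, 4 were called: Apobec3, Phf5a, Krt79 and Tmem71.

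Phf5a, a subunit of the splicing factor SF3B and 13 tested genes beyond Apobec3, placed 8 of 9 strains on the side of their Apobec3 level. Its strain means were 396.0 in BXH2, 439.3 in BXH7, 471.6 in BXH8, 434.2 in BXH9 and 390.3 in BXH19. In the high set they were 445.3 in BXH4, 906.7 in BXH6, 853.0 in BXH10 and 846.6 in BXH14. C3 had 410.5 ± 74.4, B6 868.95 ± 96.9 and F1 643.6 ± 16.5 (SD, n = 2 each), and C3 minus B6 was -1.06 ± 0.17 (SE, log2; adjusted p 0.00178 by limma). The levels fell into 2 classes with F1 between them, and BXH4 combined the highest Apobec3 level with a Phf5a level among those of the low set and C3. The difference was -0.77 ± 0.18 (SE, log2), with an adjusted p of 0.988 by limma with all 9 strains. Without BXH4 it was -1.003, with an adjusted p of 0.00164 by limma, the only call in that fit beside Apobec3. BXH4 was left out of that fit as 1 of 9 strains each left out in turn.

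On the other side of Apobec3 the agreement was lower. St3gal1, a sialyltransferase 83 tested genes before Apobec3, placed 7 of 9 strains on the Apobec3 side, with BXH7 at 0.04 and BXH6 at 1.01 of the way to C3. Aard, 110 before, also placed 7, with BXH7 at 0.43 and BXH4 at 0.96. Tmem71, 88 before, placed 5, with BXH2, BXH7 and BXH8 at the level of B6 and BXH6 at that of C3. Oxr1, an oxidation resistance gene 119 before, placed 4. At the far end the keratin gene Krt79 and the retinoic acid receptor gene Rarg, 130 and 140 tested genes beyond Apobec3, placed 4 and 3. Tmem71 and Phf5a had their strains near either end of the scale, whereas several Oxr1 and Aard positions were intermediate. So were St3gal1 in BXH2 (0.58) and BXH19 (0.71), Krt79 in BXH10 (0.61) and Rarg in BXH2 (0.43). The counts for these genes rest in part on values near the threshold.

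**Figure D3:**
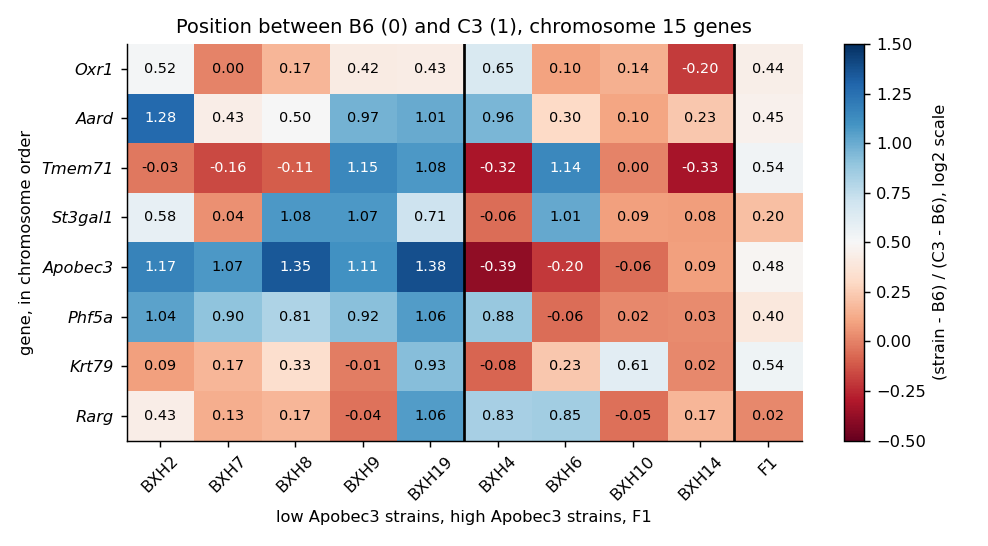
Position of each RI strain and F1 (columns) between B6 (0, red) and C3 (1, blue) on the log2 scale for the 8 chromosome 15 genes called in C3 minus B6 (in chromosome order, top to bottom). Apobec3 separates the strains by construction; Phf5a matches it in 8 of 9 strains, with BXH4 at 0.88, and the outer genes match in 3 to 7.

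On other chromosomes the largest difference among genes without overlap was that of Gprc5b, an orphan G protein-coupled receptor gene on chromosome 7. Its strain means were 133.0 in BXH2, 107.8 in BXH7, 377.6 in BXH8, 117.0 in BXH9 and 116.8 in BXH19, against 410.7 in BXH4, 406.5 in BXH6, 381.3 in BXH10 and 426.1 in BXH14. Arrays of 1 strain were close, at 374.5 and 380.8 in BXH8. The strains thus fell into 2 levels, with BXH8 at the higher one, just under BXH10. The Gprc5b difference was -1.34 ± 0.30 (SE, log2), with an adjusted p of 0.988 by limma on strain means. It was called without BXH8, at -1.65 with an adjusted p of 0.000102 by limma. A limma fit of the 18 arrays with strain as a random block also called Gprc5b. The adjusted p was 0.0225, or 0.0393 with a replicate block added. That fit applied 1 shared within-strain correlation to all genes, while the sets differ only between strains. The 2 arrays of a strain can then count in part as replicates, so this call is weaker than a call on strain means.

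The progenitors went the other way for Gprc5b. C3 had 261.6 ± 19.5 and B6 had 120.7 ± 3.96 (SD, n = 2 each), so C3 minus B6 was 1.02 ± 0.17 (SE, log2) with an adjusted p of 0.0027 by limma, and 0.118 when fitted on the C3 and B6 arrays alone. F1 had 202.1 ± 25.2 (SD, n = 2). The low-set strains other than BXH8 stood at the B6 level, and the high-set strains and BXH8 stood above C3. A second Gprc5b probe set had the same signs, with -1.08 for low minus high and 0.62 for C3 minus B6. Gprc5b was the 1 gene among the 94 unlinked ones that was also called in C3 minus B6.

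**Figure D4:**
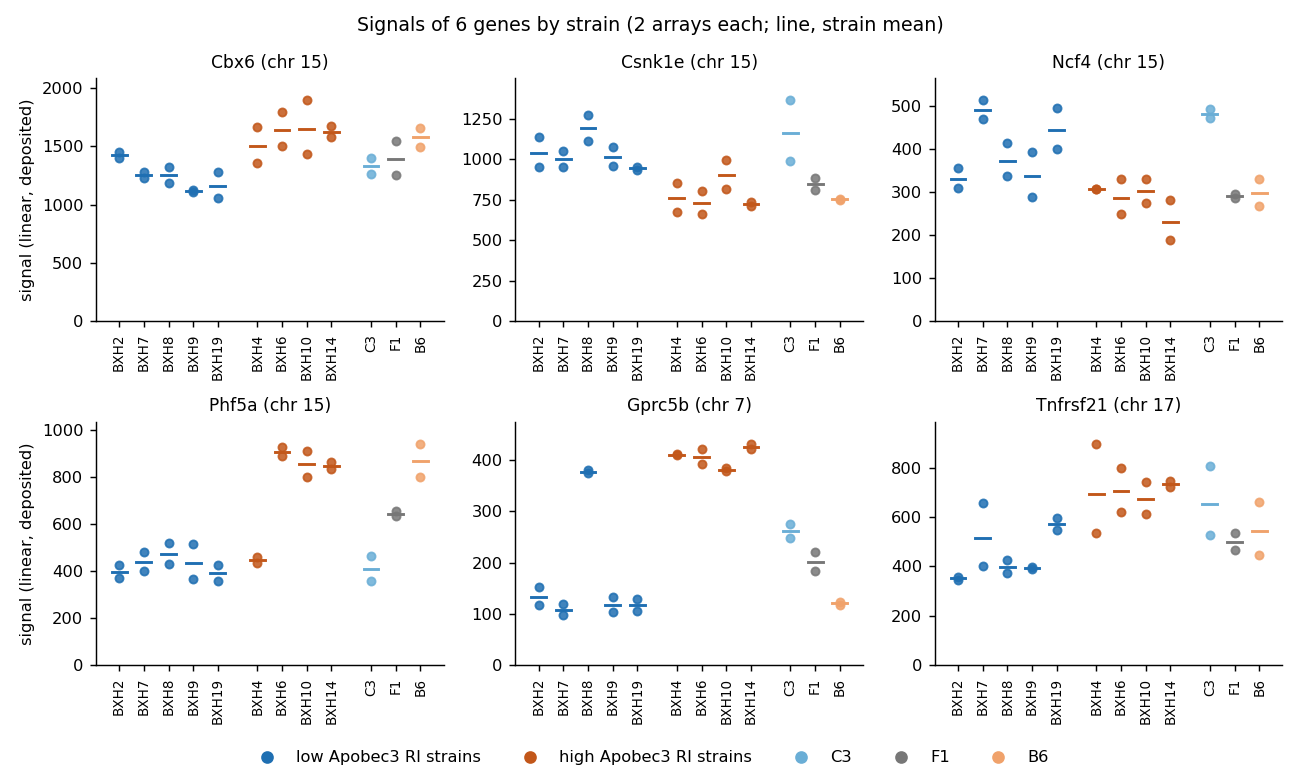
Linear signals (vertical axes) of 6 genes on each array, by strain (horizontal axes), with strain means as lines. Cbx6, Csnk1e and Ncf4 separate the sets by strain means; Phf5a is divided by BXH4 at 445.3 and Gprc5b by BXH8 at 377.6, each at the level of the opposite set.

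Tnfrsf21 encodes death receptor 6 and lies on chromosome 17. Among the tested unlinked genes named by size of difference it had the smallest unadjusted p, 0.000435 by limma. Its strain means ran between 352.4 in BXH2 and 572.6 in BXH19 in the low set and between 674.4 in BXH10 and 734.8 in BXH14 in the high set. The difference was -0.65 ± 0.13 (SE, log2), and a second Tnfrsf21 probe set, also without overlap, gave -0.31. C3 and B6 did not separate in that direction, with 669.05 ± 198 and 555.2 ± 152 (SD, n = 2 each).

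The other 10 genes named by size numbered 4 that were higher and 6 that were lower in the low set. Iglv1, an immunoglobulin light chain segment, was higher by 0.89 ± 0.24 (SE, log2). Its means were 229.5 to 332.4 in the low set and 76.5 to 206.1 in the high set, and its second, dimmer probe set differed by -0.17. Fabp3, the fatty acid binding protein of heart and muscle, was higher by 0.64 ± 0.22 (SE, log2), with means of 598.2 to 1407.2 in the low set and 472.7 to 559.4 in the high set. It was highest in BXH9 and BXH8, both among the 3 strains with the most muscle transcript, and with the muscle list mean as a covariate the Fabp3 difference was 0.38. Bysl, a ribosome assembly factor, was higher by 0.60, and Id4, an inhibitor of helix-loop-helix factors, by 0.42, both on the log2 scale. Other probe sets of these genes overlapped between the sets and stood near 0, at 0.08 for Bysl and -0.06 and 0.03 for Id4.

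Among the lower ones, the chromatin cofactor gene Arid5b differed by -0.53, Saal1 by -0.50, the unfolded protein sensor Ern1 by -0.49, the trafficking complex subunit Trappc13 by -0.49, the lipid phosphatase gene Mtm1 by -0.45 and the G protein gene Gnao1 by -0.45, all on the log2 scale. Their other probe sets overlapped between the sets and mostly stood nearer 0: 0.04 for Arid5b, 0.07 and -0.09 for Saal1, -0.05 and -0.04 for Ern1, and -0.13 and 0.01 for Gnao1. For Mtm1 they were -0.15 and -0.54, and Trappc13 had none. On the probe set used, Ern1 was the one of these 6 with a progenitor difference of similar size in the same direction, -0.72 ± 0.22 (SE, log2; adjusted p 0.151 by limma), with means of 126.4 to 183.9 in the low set and 201.7 to 238.9 in the high set. Of all 94 unlinked genes 34 had the sign of C3 minus B6, which is 36.2%, beside 47.2% of all genes. When the progenitors were added to the sets, 16 unlinked genes still did not overlap.

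Probe sets that were left out as dim, or as not the brightest of their gene, were then examined. The genes described from them, Cbx7, Slco1a6, Rbfox2 and Nol12, were chosen after their values were seen. Over every probe set with no filter, 2 of 20379 (0.00981%) were called beside that of Apobec3. The first was a probe set for Cbx7, a Polycomb chromobox gene immediately beyond Apobec3. Its strain means were 13.0, 11.8, 12.4, 10 and 14.2 in BXH2, BXH7, BXH8, BXH9 and BXH19, against 164.4, 124.8, 102.4 and 156.9 in BXH4, BXH6, BXH10 and BXH14. Single arrays lay between 8.4 and 15.9 in the low set and between 74.0 and 196.9 in the high set, without overlap. The Cbx7 difference was -2.42 ± 0.14 (SE, log2) with an adjusted p of 9.87e-05 by limma. The low-set signals lay below the 16 added before taking logs, so the size of this difference depends on that choice. C3 arrays had 8.2 and 13.2, and B6 arrays had 29.6 and 132.4. The probe set is of the type that can bind related transcripts, and the second Cbx7 probe set, at a log2 level of 7.01 in the low set and 7.22 in the high set, differed by -0.20.

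Slco1a6, an organic anion transporter gene on chromosome 6, was the other call, at -0.83 ± 0.09 (SE, log2; adjusted p 0.0265 by limma). Its strain means were 22.8 to 26.6 in the low set and 52.8 to 63.2 in the high set, but its single arrays overlapped, at 9.2 to 52.0 and 41.1 to 93.9, and all are far below the median signal of an array. With 1 probe set per gene and no filter, Slco1a6 was the only call among 12392 genes (0.00807%). On chromosome 15, 1 of 4 Rbfox2 probe sets, for a splicing factor gene, was left out only because another was brighter. It separated even the single arrays, with 390.4 to 729.4 in the low set and 198.5 to 389.3 in the high set. The Rbfox2 difference there was 0.69 ± 0.11 (SE, log2; adjusted p 0.506 by limma), while the brightest probe set of the gene differed by -0.01. Nol12, a nucleolar protein gene, had strain means of 104.7 to 247.9 in the low set and 53.2 to 99.4 in the high set. The Nol12 difference was 1.07 ± 0.27 (SE, log2), with an adjusted p of 0.992 by limma. Single Nol12 arrays overlapped, at 67.3 to 332.9 in the low set and 46.4 to 186.8 in the high set. For Nol12, C3 minus B6 was 1.88 on the log2 scale (adjusted p 0.0812 by limma), and F1, at 337.2, stood above C3, at 276.75.

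The last question was whether genes related to Apobec3 by function differed with it. Of the 4 other deaminase genes tested, 0 were called, and the list median was 0.07 on the log2 scale, beside -0.00 over all genes. Apobec1, the apolipoprotein B editing enzyme, differed by 0.17, the adenosine deaminase Adar by -0.06 and Cdadc1 by -0.04. Apobec1 differed by 0.02 without BXH10. Apobec2, known from skeletal and heart muscle, had 728.3 in BXH2, 748.2 in BXH8 and 704.4 in BXH9, against 121.4 to 233.6 in the other 6 strains. Those are the 3 strains with the most muscle transcript. The Apobec2 difference was 0.99 ± 0.56 (SE, log2) and became 0.02 with the muscle list mean as a covariate, a term added after the data were seen.

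Retrovirus restriction factors and virus receptors gave 0 calls in 15 tested genes, with 7 above and 8 below 0 and a median of -0.01. The nucleotide hydrolase Samhd1 differed by -0.25, the retrovirus receptor Xpr1 by -0.19, the membrane protein gene Ifitm1 by -0.16 and the corepressor Trim28, which silences endogenous retroviruses, by -0.09. Interferon response genes gave 0 calls in 20, with 11 above and 9 below 0 and a median of 0.01. The interferon list mean (log2) was 9.89 in BXH4, against 8.97 to 9.24 in the other high-set strains and 9.13 to 9.59 in the low set. The list median over all 9 strains thus includes 1 high-set strain above all others. The GTPase genes Gbp3 and Gbp2 differed by 0.49 and 0.41, Ifi27l2a by 0.59 and the immunoproteasome subunit Psmb9 by 0.24, each with BXH4 above the other strains of the high set. Without BXH10, Gbp2 differed by 0.15 and Psmb9 by 0.09, and without BXH4 by 0.69 and 0.39. Gbp3 without BXH4 differed by 0.75. Among the restriction factors, omission of 1 strain or array gave -0.37 to -0.13 for Samhd1, -0.28 to -0.11 for Xpr1, -0.26 to -0.06 for Ifitm1 and -0.18 to -0.01 for Trim28. Members of both lists thus lay on either side of 0.

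Of 9 B lineage genes, 8 were above 0 and 0 were called, with a median of 0.10. Ighm, the heavy chain of immunoglobulin M, had 1945.0 to 3718.9 in the low set and 694.1 to 2342.7 in the high set. The difference was 0.91 ± 0.30 (SE, log2) on the brightest of its 11 probe sets, which disagreed in sign. The next in brightness differed by 0.66, -0.09 and 0.30. The dimmer ones ran between -0.80 and 0.31, most of them below 0. Jchain differed by 0.47, Cd79b by 0.29 and Ms4a1 by 0.13. Single strains carried much of this: without BXH4 Jchain differed by 0.16 and Cd79b by 0.14, and without BXH10 Ighm differed by 0.57. Over all omissions of 1 strain or array, Cd79b ran between 0.14 and 0.48 and Ms4a1 between -0.01 and 0.28. In bulk lung, fewer cells of a type and less RNA per cell cannot be told apart. Myeloid genes had 11 of 14 above 0 (median 0.06), neutrophil granule genes 8 of 9 (0.25), and T and NK cell genes 2 of 6 (-0.09). Single strains stood out in these list means (log2). The neutrophil mean was 10.55 in BXH2, against 9.36 to 9.83 in the other low-set strains. In BXH4 it was 10.23, against 9.24 to 9.56 in the other high-set strains. The T and NK mean was 9.44 in BXH4, against 7.66 to 8.10 in the other high-set strains and 7.89 to 8.61 in the low set. Among chromosome 15 families, the type II keratins, listed together with the type I keratin Krt18, had 4 of 8 above 0 (median 0.00). The Ly6 family had 3 of 3 (0.28) and the Cyp2d cluster 0 of 2 (-0.16). All these lists had 0 calls.

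Lung marker lists had small medians: 0.05 for alveolar type 2 cells, 0.09 for club and ciliated cells, -0.10 for endothelium and 0.09 for fibroblasts and smooth muscle. Of 12 endothelial genes, 8 were below 0. Among them Ednrb, at -0.31, had strain means that did not overlap (adjusted p 0.988 by limma). The lists with the largest medians were those of other tissues. All 14 tested skeletal muscle genes were above 0, with a median of 1.36, as were 7 of 7 squamous epithelium genes (0.56) and 4 of 4 adipose genes (0.56), and 0 were called in each. Squamous list means (log2) were 9.66, 10.29 and 9.40 in BXH2, BXH8 and BXH9. BXH7 and BXH19 had 7.44 and 8.40, within the high-set range of 7.15 to 8.56. Adipose list means were 9.64, 10.40 and 9.69 in BXH2, BXH8 and BXH9. They were 8.57 and 9.00 in BXH7 and BXH19, within 8.44 to 9.48 of the high set. Myoglobin (Mb), itself on chromosome 15 and 39 tested genes before Apobec3, had 3804.6, 1135.8, 4836.7, 6166.4 and 778.2 in BXH2, BXH7, BXH8, BXH9 and BXH19. It had 888.4, 712.5, 1090.4 and 1582.5 in BXH4, BXH6, BXH10 and BXH14. BXH7 and BXH19 stood within the range of the high set, so the Mb difference of 1.29 was that of BXH2, BXH8 and BXH9. With the muscle list mean as a covariate, 0 genes other than Apobec3 were called. The lowest adjusted p was then 0.0519 by limma, just above the threshold, beside 0.988 without the covariate. The differences in that fit were -0.38 for Cbx6, 0.35 for Csnk1e, 0.63 for Ncf4, -0.79 for Phf5a, -1.57 for Gprc5b and -0.47 for Tnfrsf21. The part of squamous and adipose transcripts in these results was not tested. In the squamous list the keratin gene Krt13 had 136.9 to 2334.4 in the low set and 35 to 336.1 in the high set. Clock genes had 2 of 12 above 0 and a median of -0.23, with Cry2 at -0.49, Per3 at -0.51 and Tef, 11 tested genes beyond Apobec3, at -0.26. Without BXH10, Per3 differed by -0.26, and without BXH7, Tef differed by -0.14. Erythroid (median -0.08), immediate early (0.01) and cell cycle genes (0.00) lay near 0.

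**Figure D5:**
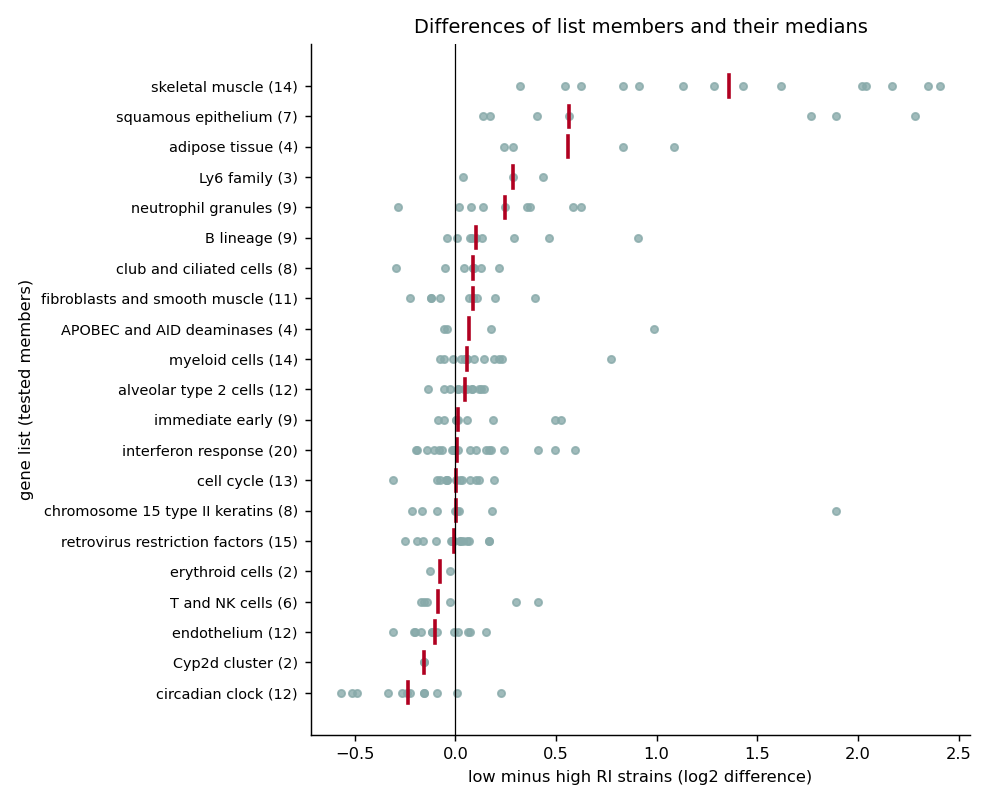
Log2 difference, low minus high RI strains (horizontal axis), of each tested member (points) of 21 gene lists (vertical axis, with the number of tested members), with list medians as red lines. The skeletal muscle list has the highest median, 1.36, and the interferon and restriction factor lists lie at 0.01 and -0.01.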

How the data were processed

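Lung RNA was measured on 24 arrays. The deposited table gives 1 linear intensity per probe set, and no source used here names the software or scaling behind it. The trimmed mean (2% at each end) lay at 500.1 on every array. Of 22690 probe sets, 20380 carried 1 gene symbol in the platform annotation. Signals were taken as log2(signal + 16). The brightest probe set of each gene was used if it was among the top 60% by mean, which left 8280 genes. The 2 arrays of a strain were averaged, and 9 strain means were fitted with limma 3.58.1 in R 4.3.3 (eBayes with trend, 7 residual degrees of freedom, Benjamini-Hochberg over all genes, called at adjusted p below 0.05). C3 minus B6 was fitted on all 24 arrays with 12 strains as groups. The analysis was tested on simulated data. Strain means and set ranges are back-transformed to linear signals, array values are as deposited, and the number of arrays and strains limits the precision.

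The strains of each set, the gene lists and the tests were chosen with earlier results of these data known. Named genes were those called, filled to 12 on chromosome 15 (9 met the condition) and to 12 elsewhere by the largest differences without overlap of strain means, the 6 tested neighbours on each side, the chromosome 15 genes called in C3 minus B6, every tested deaminase and up to 4 members of a list by smallest p. Gene order came from RefSeq (GRCm38.p6), which held 20351 of the probe sets with 1 symbol. The files name no build. Alternatives changed normalization, offset, filter, probe set rule, trend, unit of the test and samples.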

Additional observations from a re-analysis of the deposited data

Results flagged for a closer look

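In 7 of 134 sets of strain means, 1 strain stood apart from the others of its set by Dixon's criterion at the 95% level, which chance alone meets in about 1 of 20 sets. Of the 7, 4 concern BXH4 in the high Apobec3 set. Cbx6 had 1506.2 in BXH4, against 1627.5 to 1650.1 in BXH6, BXH10 and BXH14. Phf5a had 445.3 in BXH4, against 846.6 to 906.7. Jchain had 520.2 in BXH4, against 1216.7 to 1266.7. Trim28 had 1321.5 in BXH4, against 1203.4 to 1217.9. In the same set St3gal1 had 126.5 in BXH6, against 263.2 to 295.5 in the others. In the low Apobec3 set Gprc5b had 377.6 in BXH8, against 107.8 to 133.0, and Arid5b had 204.8 in BXH19, against 144.7 to 155.1. For Phf5a and Gprc5b the strain decided the call, which was made only without it in the fits on strain means.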

How the results depend on the processing

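Beside 0 calls, 1 gene was called with no filter (Slco1a6), 2 probe sets over every probe set with no filter, an alternative added later, and 0 to 1 with a strain or array left out. With 18 arrays and strain as a random block 1 gene was called, Gprc5b, and also 1 with a replicate block added; array numbers did not pair the samples (correlations of -0.25 to 0.34, 13 of 36 strain pairs above 0.1). With the progenitors added, 3 chromosome 15 genes and 16 others did not overlap. Leaving out 1 strain or array gave 6 to 26 and 74 to 394. C3 minus B6 called 4 chromosome 15 genes on the C3 and B6 arrays alone, 3 to 10 with 1 array left out, and 7 with a replicate block. Over single genes and settings, 28 C3 minus B6 values lost a call, 1 gained one and 174 did neither. Small log2 differences changed sign. With progenitors these were Ddx17 (-0.0034), Pdgfb (0.016), Tnrc6b (0.0025), Adsl (-0.030), Rarg (0.055) and Bhlhe40 (0.045). With the mean of probe sets they were Pdgfb (0.012), Atf4 (0.048) and Cdadc1 (0.018). With the muscle covariate they were Adsl (-0.095), Rarg (0.057), Adar (0.091) and Cdadc1 (0.040). Ddx17 was -0.016 with quantile normalization and Pdgfb 0.0047 with median centring. With 1 strain or array left out, differences ran from -0.023 to 0.042 for Ddx17, -0.24 to 0.012 for Gtpbp1, -0.071 to 0.088 for Pdgfb, -0.18 to 0.013 for Tab1, -0.19 to 0.061 for Tnrc6b, -0.045 to 0.095 for Adsl, -0.081 to 0.42 for Krt79, -0.15 to 0.020 for Rarg, -0.14 to 0.076 for Adar, -0.14 to 0.023 for Cdadc1 and -0.015 to 0.28 for Ms4a1. The causes were not tested. For the probe set used, or the mean of probe sets where that was tested, the other named genes kept their direction under every setting run. Further probe sets of some of them, such as Csnk1e, Eif3h and Iglv1, went the other way. Signals near the floor of an array, as for Slco1a6 and the low-set Cbx7 values, limit what a difference there can show.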
